A study of Xenopus tropicalis with 4 samples.

Results

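The 7 genes described here bind, lengthen or control the poly(A) tail of mRNAs, and were followed in whole-body RNA of adult Xenopus tropicalis: cpeb1, patl2, pabpc1l, pabpc1, pabpc4, papolg and fam46c. They were taken from the deposited expression table by symbol, and make up 7 of its 15410 genes and 39 of its 66426 polyadenylation sites. Of those 39 sites, 36 lie on the gene's own strand and 3 on the opposite strand. The libraries came from 2 adult females and 2 adult males, each library from 1 frog by its label, with no treatment or strain given. WTTS-seq sequences RNA from its 3' end, at the poly(A) tail, so each read stands for an RNA end and a gene's count does not scale with the length of its transcript. Whether some reads came from priming on A-rich stretches inside RNA was not tested. By its title, the series asks whether male and female frogs choose different ends for the same gene.

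A poly(A) tail is added to an mRNA in the nucleus and is then bound by poly(A)-binding proteins, which protect it and help to start translation. Frog oocytes store mRNAs with short tails in a silent state. Proteins such as CPEB hold them there and later allow the tail to be lengthened in the cytoplasm when the oocyte matures. Oocytes and early embryos use their own forms of several of these proteins, whereas other tissues use the general forms.

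The females gave 2380500 and 1778737 reads, and the males 2779715 and 1531471. The 7 genes together held 11962 and 7370 reads in females, against 7316 and 4099 in males. To describe the tissue, lists of marker genes were read. All 13 tested genes of a list of oocyte and egg markers were higher in females. The gene lists were chosen with earlier results of these data known, so this count is not an independent check. The 14 marker genes in the table summed to 4570 and 4165 CPM (the usual counts-per-million scale, with library sizes adjusted by TMM) in females, against 6.10 and 6.64 CPM in males. In both males 9 of the 14 were at 0 reads: bmp15, gdf1, gdf9, pou5f3.2, pou5f3.3, velo1, zar1, zp2 and zpd. Genes at 0 reads in both males can pass the filter on low counts only through the females. The other tested markers of this list, with at most 6 reads in a male (h1foo), also passed it only through the females. Of 27 tested markers of muscle, liver, nerve, connective tissue and blood, 24 were higher in males. This list summed to 11782 and 5501 CPM in females and 149022 and 86582 CPM in males. Genes listed as testis and sperm markers were split, with 3 of 6 tested genes higher in females (brdt, ddx4 and odf2) and 2 in males (odf3 and tekt1). Of all tested genes, 19.6% and 17.1% were called in these directions. ddx4, too, had 0 reads in both males. sycp1 was not tested, with 0 reads in both females and 34 and 1 in males. Nor were ropn1l (5 and 1 reads in females, 13 and 0 in males) and sycp3 (8 and 4, 0 and 2). The listed genes summed to 514 and 460 CPM in females and 102 and 72.1 CPM in males. brdt alone gave 468 and 322 CPM in females and 23.2 and 19.0 CPM in males. odf3 had 1 and 3 reads in females and 63 and 39 in males, and tekt1 0 and 1 against 19 and 11. These marker levels moved with sex in the same libraries as every result below, and their part in the differences was not tested. In whole-body RNA, fewer cells of a type and less RNA per cell cannot be told apart.

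Of the 7 genes, 5 were higher in females (cpeb1, patl2, pabpc1l, papolg and fam46c), 1 was higher in males (pabpc1), and pabpc4 did not pass the test. patl2 and pabpc1l had 0 reads in both males, and cpeb1 had 6 and 5, too few for the filter on low counts. All of these passed that filter only through the females. Each gene was tested with edgeR's quasi-likelihood test on its summed reads, with Benjamini-Hochberg adjustment over all 10188 tested genes at 0.05. Of these 10188 genes, 19.6% were called higher in females and 17.1% higher in males, and the median log2 fold change, female over male, was 0.35. The values of the sexes did not overlap for any of the 7 genes. Over all tested genes, both females lay above both males in 42.6%, and both lay below in 32.1%.

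**Figure D1:**
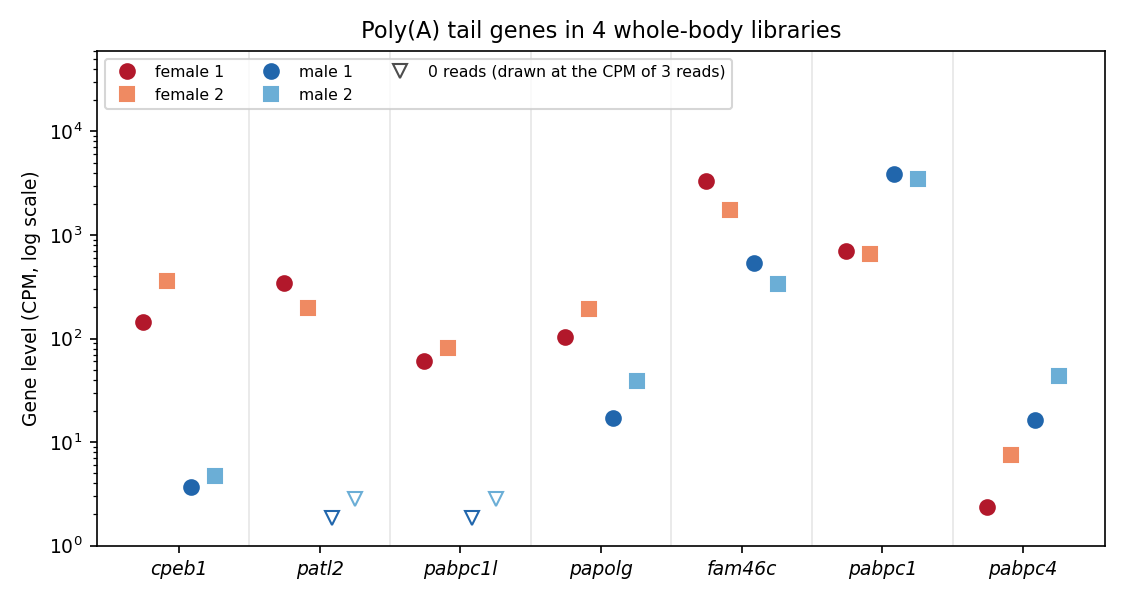
Level of the 7 genes in each library in CPM on a log axis; each point is 1 frog, and open triangles mark libraries with 0 reads, drawn at the CPM that 3 reads would give. The points of the females lie above those of the males for cpeb1, patl2, pabpc1l, papolg and fam46c, and below them for pabpc1 and pabpc4.

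cpeb1 encodes the RNA-binding protein that recognises the cytoplasmic polyadenylation element and controls the tails of stored mRNAs in frog oocytes. It had 367 and 821 reads in females, against 6 and 5 reads in males. At 143 and 359 CPM in females and 3.66 and 4.74 CPM in males, both females stood far above both males, although the females themselves differed more than 2-fold. The means were 251 ± 152 CPM in females and 4.20 ± 0.77 CPM in males (SD, n = 2 each). The log2 fold change was 5.90 ± 0.78 (SE, edgeR adjusted p = 0.00616), or 59.5-fold. By level, cpeb1 ranked 1089 and 265 among the genes with reads in females and 9256 and 9062 in the males.

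Nearly all cpeb1 reads ended at a single place. The gene lies on chromosome 3 (minus strand), by its symbol in RefSeq's gene table (UCB_Xtro_10.0). Site positions here and below are printed as deposited, on a build that is not given in the sources used here. Its main site, at position 85059017 and overlapping an exon by its class code, had 363 and 816 reads in females and 6 and 5 reads in males. That was 98.9% and 99.4% of the gene's reads in the females and all of them in both males. The site test gave a log2 fold change of 6.06 ± 0.91 (edgeR adjusted p = 0.0197). Over all 17215 tested sites, 19.9% were called higher in females and 16.2% higher in males. The other cpeb1 sites on its strand were near 0: an intronic site at 85071234 had 4 reads in female 1, and exonic sites at 85059443 and 85059261 had 3 and 2 reads in female 2.

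patl2 encodes an RNA-binding protein of the Pat1 family that is found in oocytes with CPEB and the stored mRNAs. Its reads numbered 879 and 453 in females and 0 in both males. A count of 0 allows up to 1.83 CPM in male 1 and 2.85 CPM in male 2 (3 reads each). With 343 and 198 CPM in females (270 ± 102, SD, n = 2), the gene was at least 243-fold higher in females than the 1.11 CPM that 3 reads over both males would give. It passed the gene test (edgeR adjusted p = 0.00561). In the females it ranked 436 and 605 by level. The site at 9927995 on chromosome 2 (minus strand), overlapping an exon, took 879 and 432 reads, or 100% and 95.4% of the gene's reads. That site was at least 239-fold higher in females (edgeR adjusted p = 0.0197). In female 2 alone, 19 reads fell on an exonic site at 9943313 and 2 on an intronic site at 9936617.

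Of the cytoplasmic poly(A)-binding proteins, pabpc1l had no reads in males. This gene, known in Xenopus as the embryonic poly(A)-binding protein of oocytes and early embryos, had 156 and 184 reads in females and 0 in both males. Its levels of 60.8 and 80.4 CPM in females (70.6 ± 13.8, SD, n = 2) were close to each other, and at least 63.4-fold above the males' floor of 3 reads (edgeR adjusted p = 0.00649). An exonic site at 5561228 on chromosome 10 (plus strand) held 150 and 163 of these reads and 0 in males, at least 58.2-fold higher in females (edgeR adjusted p = 0.0197). The remaining reads lay at 3 minor sites: 5545635 (0 and 17 reads in the females), 5548228 (2 and 3 reads) and 5561547 (4 and 1 reads). None of the 3 had a read in a male.

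pabpc1, the general cytoplasmic poly(A)-binding protein, ran the other way. It had 1799 and 1500 reads in females and 6374 and 3655 reads in males. On the CPM scale this was 701 and 655 in females, against 3889 and 3467 in males, and within each sex the 2 frogs were close. The means were 678 ± 32.6 CPM in females and 3678 ± 298 CPM in males (SD, n = 2 each). Its log2 fold change was -2.44 ± 0.72 (edgeR adjusted p = 0.0338), that is 5.42-fold higher in males. Without any scaling beyond the totals, library-size CPM values were 756 and 843 in females and 2293 and 2387 in males, with a log2 fold change of -1.53 (edgeR adjusted p = 0.0714). pabpc1 ranked 187 and 106 by level in the females, against 62 and 67 in the males, so that it stood among the most abundant genes in all 4 frogs.

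The direction of pabpc1 held under TMM, RLE and library-size scaling and turned to 1.54 (edgeR adjusted p = 0.0614) when the libraries were scaled so that the somatic markers had a median log2 fold change of 0. That scaling moved the median of all tested genes to 4.32, against 0.35 with TMM, 0.34 with RLE and 1.25 with library size alone. Measured from the median of all genes, pabpc1 lay at -2.79 with TMM and RLE and at -2.78 with the other 2 scalings. A change of scaling shifts all genes by nearly the same amount, so these values had to agree. They give the place of pabpc1 among all genes and do not test its direction. The call was also lost with a filter of 1 CPM in 2 libraries (-2.25, edgeR adjusted p = 0.0516). It was lost too when any 1 of the 4 frogs was left out, with log2 fold changes of -2.51 to -2.26.

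pabpc4, a related cytoplasmic poly(A)-binding protein known in Xenopus for a role in embryonic development, was the rarest of the 7 genes in females. It had 6 and 17 reads in females and 27 and 46 reads in males, or 2.34 and 7.43 CPM in females and 16.5 and 43.6 CPM in males. The lower male was above the higher female. Its log2 fold change of -2.60 ± 0.93 missed the threshold (edgeR adjusted p = 0.0584, unadjusted p = 0.0229), and turned to 1.36 under somatic scaling. It also missed the threshold with library size alone (-1.65, edgeR adjusted p = 0.218) and with intronic sites left out (-2.12, edgeR adjusted p = 0.211). Among the fits without 1 frog, only that without male 1 (-3.14) passed the threshold. The others gave -2.00 without female 1, -3.50 without female 2 and -1.66 without male 2. pabpc4 lies on chromosome 2 (plus strand), and 4 of its 5 sites are intronic by class code. The intronic site at 86909831 had 1 and 0 reads in females and 13 and 12 reads in males. Further intronic sites stood at 86910294 (0 reads in both females, and 7 and 2 reads in the males), at 86910385 (3 and 1 reads in females and 0 and 3 in the males) and at 86914120 (3 reads in male 2 only). The last site, at 86929373 and overlapping an exon, had 2 and 16 reads in females and 7 and 26 reads in males. Its log2 fold change was -1.71 ± 1.31 (edgeR adjusted p = 0.327). There female 2 (6.99 CPM) lay above male 1 (4.27 CPM), so without the intronic reads the sexes overlapped.

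Shares within a family are taken inside each library, so they do not depend on how libraries are scaled to each other. Of the reads of pabpc1, pabpc1l and pabpc4 together, pabpc1l made up 7.96% (95% Clopper-Pearson interval 6.80 to 9.24) in female 1 and 10.8% (9.38 to 12.4) in female 2. In the males it was 0 of 6401 and 0 of 3701 reads, with 95% Clopper-Pearson upper limits of 0.0576% and 0.0996%. pabpc1 itself still made up most of this family in females, at 91.7% and 88.2%, and was 99.6% and 98.8% in males. The share of pabpc4 was 0.306% and 0.999% in females and 0.422% and 1.24% in males, so that the sexes overlapped (exact permutation p = 0.667, two-sided).

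The other oocyte forms took larger shares of their families. patl2 made up 95.1% and 91.0% of the reads of patl1 and patl2 in females, and 0 of 78 and 0 of 39 reads in males. The 95% Clopper-Pearson upper limits in the males were 4.62% and 9.03%. patl1, known as the form of other tissues, had 17.5 and 19.7 CPM in females and 47.6 and 37.0 CPM in males, and its log2 fold change of -1.19 ± 0.61 did not pass the test (edgeR adjusted p = 0.154). Most patl1 reads in males lay in introns, 78 of 78 in male 1 and 35 of 39 in male 2, against 29 of 45 and 12 of 45 in females. Without intronic sites its fold change turned to 2.33, as it also turned to 2.79 under somatic scaling.

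cpeb1 made up 36.1% and 63.3% of the reads of cpeb1 to cpeb4 in females and 0.412% and 0.441% in males. cpeb4, a relative that also takes part in frog oocyte maturation, had 85.4 and 93.1 CPM in females and 483 and 592 CPM in males. It was higher in males (log2 fold change -2.59 ± 0.57, edgeR adjusted p = 0.0150), except under somatic scaling, which turned it to 1.39, and its call was lost without female 1 or female 2. cpeb2 had 166 and 114 CPM in females and 399 and 480 CPM in males, and just missed the threshold at -1.65 ± 0.57 (edgeR adjusted p = 0.0519), turning to 2.33 (adjusted p = 0.00424) under somatic scaling. It was called higher in males with DESeq2 (-1.66, adjusted p = 0.0318) and with intronic sites left out (-1.92, edgeR adjusted p = 0.0372). cpeb3 had 5 and 4 reads in females and 7 and 0 reads in males, too few to be tested.

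With 2 frogs per sex, an exact permutation test (two-sided) cannot go below p = 0.333. That value was reached by the shares of pabpc1l, pabpc1, patl2, cpeb1 and papolg, whose sexes did not overlap, among the 7 shares computed, so none of the 7 could pass 0.05 before or after adjustment. The intervals and floors cover counting error only, since reads without molecular identifiers are not independent molecules.

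**Figure D2:**
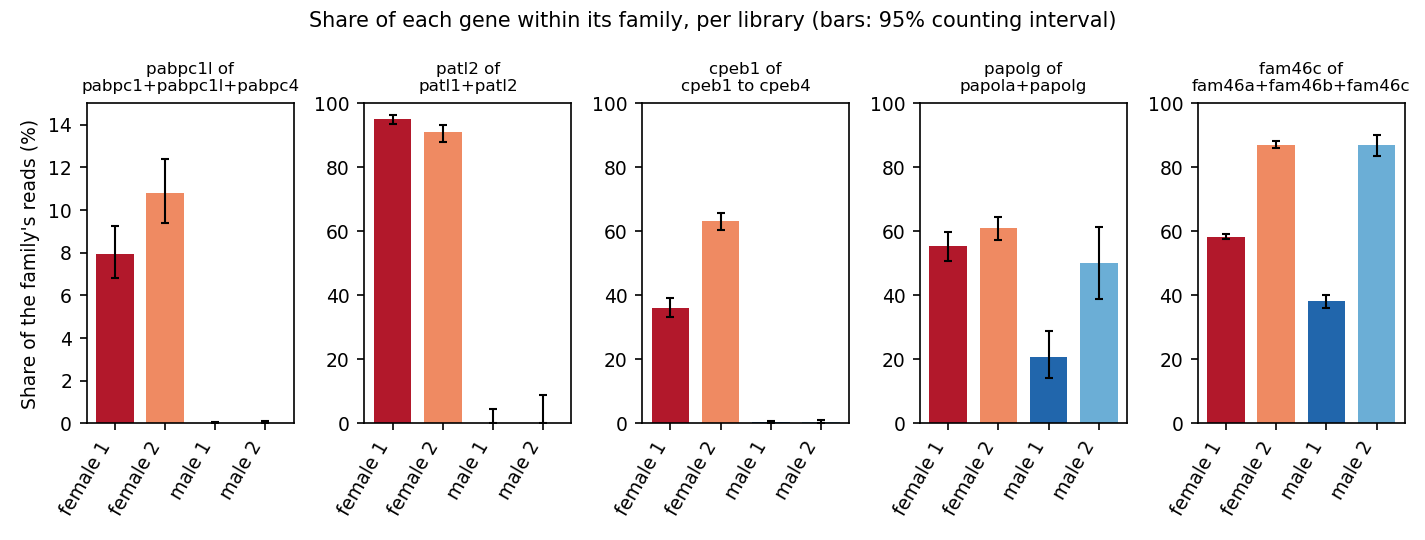
Share of each gene in the reads of its family in each library, in percent; bars are single frogs and the black lines are 95% Clopper-Pearson intervals of counting error, with the left panel drawn on its own scale. pabpc1l, patl2 and cpeb1 are at 0 or under 1% in the males, whereas the shares of papolg and fam46c in male 2 (50.0% and 87.1%) come near those of the females.

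papolg encodes a nuclear poly(A) polymerase, a close relative of the general polymerase papola. It had 265 and 438 reads in females and 28 and 41 reads in males. At 103 and 191 CPM in females and 17.1 and 38.9 CPM in males, the lower female was above the higher male. The means were 147 ± 62.2 CPM in females and 28.0 ± 15.4 CPM in males (SD, n = 2 each), a log2 fold change of 2.41 ± 0.66 (edgeR adjusted p = 0.0261), or 5.30-fold. The call was lost without female 1, female 2 or male 1 (log2 fold changes of 2.77, 2.03 and 1.93). papola had 83.0 and 123 CPM in females and 64.7 and 38.9 CPM in males, and did not pass the test (0.98 ± 0.56, edgeR adjusted p = 0.194), except with library size alone (1.95) and somatic scaling (4.96). The share of papolg in the reads of both polymerases was 55.4% and 60.9% in females and 20.9% and 50.0% in males.

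fam46c encodes a cytoplasmic poly(A) polymerase of the TENT5 family and was the most abundant of the 7 genes in females. It had 8490 and 3957 reads in females and 881 and 352 reads in males. This was 3310 and 1729 CPM in females, ranking 18 and 12 by level, against 537 and 334 CPM in males, ranking 341 and 484. The mean was 2519 ± 1118 CPM in females and 436 ± 144 CPM in males (SD, n = 2 each), with a log2 fold change of 2.53 ± 0.75 (edgeR adjusted p = 0.0337), or 5.78-fold. The call was lost without female 1, male 1 or male 2 (log2 fold changes of 1.97, 2.94 and 2.34).

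The relatives of fam46c did not move alike from frog to frog. fam46b had 144 and 203 CPM in females and 15.3 and 28.5 CPM in males, and was higher in females (log2 fold change 3.0 ± 0.61, edgeR adjusted p = 0.0121). fam46a had 5685 and 119 reads in females and 1399 and 22 reads in males, so that frog 1 of each sex stood far above frog 2. Its log2 fold change of 1.37 ± 1.71 did not pass the test (edgeR adjusted p = 0.544) and turned to -3.11 without female 1. It was called higher in females without male 1 (5.80, adjusted p = 0.0225) and under somatic scaling (5.35, adjusted p = 0.0397). The share of fam46c in the reads of the 3 genes was 58.4% and 87.2% in females and 38.2% and 87.1% in males, which overlapped (exact permutation p = 0.667, two-sided).

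In the females the mean levels thus ran from fam46c (2519 CPM) through pabpc1 (678), patl2 (270), cpeb1 (251), papolg (147) and pabpc1l (70.6) to pabpc4 (4.88 CPM). The order of patl2 and cpeb1 differed between the females (343 and 198 CPM against 143 and 359 CPM), so it is not beyond the spread. cpeb1 was above papolg within each female (143 and 359 CPM against 103 and 191 CPM), although their ranges overlapped between the females. In the males the order was pabpc1 (3678 CPM), fam46c (436), pabpc4 (30.1), papolg (28.0) and cpeb1 (4.20 CPM), with patl2 and pabpc1l at 0. There pabpc4 and papolg overlapped between the frogs.

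Use of sites could be tested in 3 of the 7 genes, those with at least 2 tested sites: pabpc1, papolg and fam46c. Of the 36 sites on the genes' own strands, 15 passed the filter on low counts. Among them 6 were higher in females, in cpeb1, patl2, pabpc1l, papolg and fam46c, and 3 were higher in males, all in pabpc1. Of the 6, the main sites of cpeb1, patl2 and pabpc1l and the papolg site at 27533115 passed that filter only through the females. Their part in the count is therefore not independent of the filter. Of all 17215 tested sites, 19.9% and 16.2% were called in these directions. The authors' deposited table gives 4 of the 39 sites an FDR under 0.05, all higher in females. In the authors' deposited table these were the main sites of patl2 (signed fold 4813), pabpc1l (1161), cpeb1 (87.2) and fam46c (11.2), with FDR values of 6.96e-08, 9.68e-06, 4.75e-05 and 0.0178. The pabpc1 sites called here had an authors' FDR of 0.0538, 0.111 and 0.107, and the called papolg sites 0.104 and 0.129. The share of all deposited sites under the authors' threshold is not given here.

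pabpc1 had the most recorded sites of the 7 genes, 11 on its own strand of chromosome 6 (plus), over 13947 bases. Its leading site held 38.8% and 33.3% of the gene's reads in females and 35.6% and 41.9% in males. Over all genes with at least 100 reads in a library, the median share of the leading site was 86.1% and 74.7% in the females, against 85.5% and 86.1% in the males. The sexes differed in the use of the 6 tested pabpc1 sites (diffSpliceDGE gene-level F = 4.28, adjusted p = 0.0461), with 15.3% of the 3503 genes tested for site use called. The call was lost with intronic sites left out, as given in the last section. It was also lost without female 2 (F = 1.46) and without male 1 (F = 2.32). Those fits without 1 frog called almost no gene of the series, so the loss there is not particular to pabpc1.

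Most pabpc1 reads fell in an upstream group of 3 exonic sites within 211 bases and a downstream group of 3 sites within 334 bases. These groups were drawn after the values were seen and are given as a description. The upstream group held 27.3% and 19.7% of pabpc1 reads in females and 39.2% and 29.4% in males. The downstream group held 72.6% and 76.6% in females and 60.7% and 69.7% in males. The 5 sites between them held at most 3.73% in any frog.

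Within the upstream group, the sites at 115749960 and 115750171 followed the gene. The first had 92 and 65 reads in females and 401 and 457 in males (log2 fold change -3.25 ± 0.71, edgeR adjusted p = 0.0197). The second had 375 and 169 reads in females and 2098 and 609 in males (-2.91 ± 0.81, edgeR adjusted p = 0.0302). Between them, the minor site at 115750050 had 25 and 61 reads in females, against 0 and 7 reads in males. Its level did not pass the site test (2.70 ± 1.48, edgeR adjusted p = 0.181), although it did without male 2 (3.31, adjusted p = 0.0215). Relative to the gene's other sites its use was higher in females by 3.46 on the log2 scale (diffSpliceDGE adjusted p = 0.0368). It held 1.39% and 4.07% of pabpc1 reads in females, and 0% and 0.192% in males.

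In the downstream group, the site at 115763573 had 359 and 256 reads in females and 2269 and 673 in males (-2.83 ± 0.78, edgeR adjusted p = 0.0289). Its neighbour at 115763655 had 698 and 393 reads in females and 1517 and 1532 in males, and just missed the threshold (-2.28 ± 0.77, edgeR adjusted p = 0.0521), which it passed with DESeq2 (-2.24, adjusted p = 0.0213). The last site, at 115763907 and overlapping an exon, was the exception among the abundant ones, with 249 and 500 reads in females and 84 and 341 in males. Its share of pabpc1 reads was 13.8% and 33.3% in females and 1.32% and 9.33% in males, so both females lay above both males. Its level did not pass the site test (-0.10 ± 0.95, edgeR adjusted p = 0.94), and its relative use, higher in females by 1.52 on the log2 scale, did not pass the test either (diffSpliceDGE adjusted p = 0.259).

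The remaining pabpc1 sites were rare. Exonic sites at 115756037, 115757201 and 115758443 had 0 and 14, 0 and 34, and 1 and 2 reads in the females, against 0 and 0, 0 and 7, and 0 and 12 reads in the males. A site across an exon and an intron at 115756746 had 0 and 6 reads in females and 0 and 1 in males. The intronic site at 115762600 had 0 reads in both females and 5 and 16 in males.

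**Figure D3:**
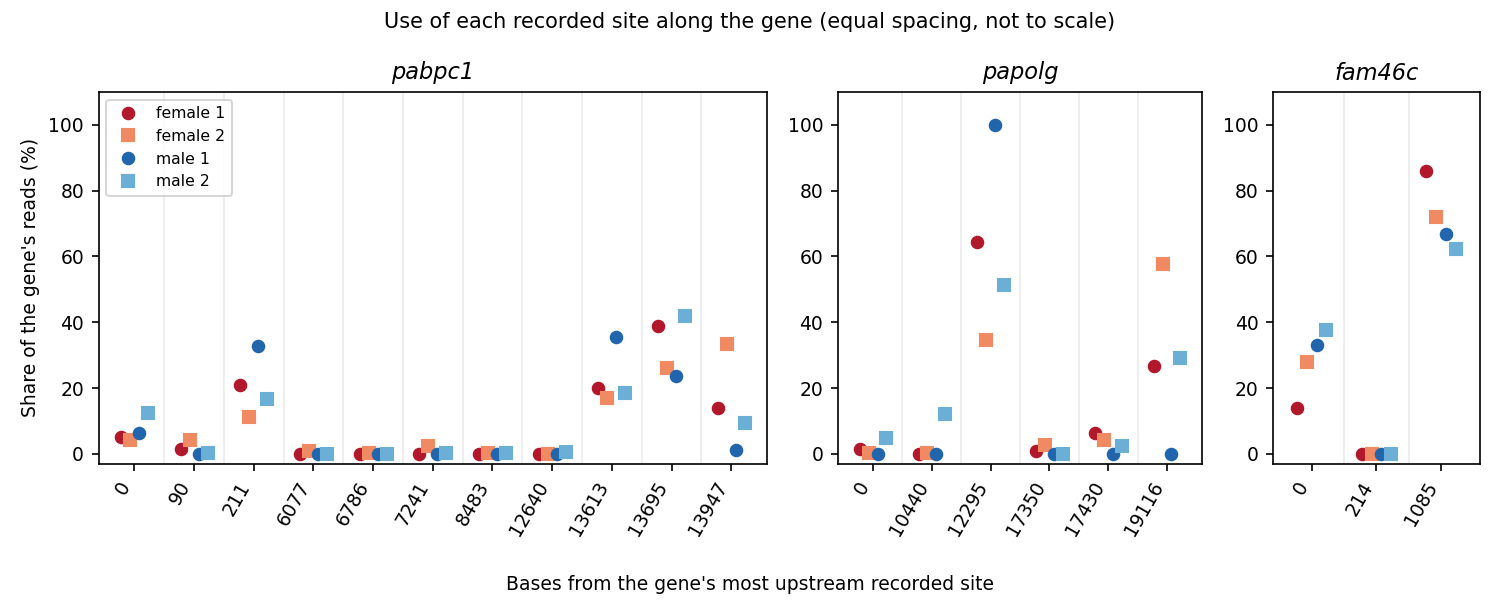
Share of a gene's reads at each recorded site on its own strand, in percent, for pabpc1, papolg and fam46c; points are single frogs, and sites are ordered from upstream to downstream with their distance in bases from the most upstream site under each. pabpc1 reads fall in a group at each end, and at the last pabpc1 site both females (13.8% and 33.3%) lie above both males (1.32% and 9.33%).

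papolg ended at several places on chromosome 5 (plus strand). The exonic site at 27527980 had 171 and 152 reads in females and 28 and 21 in males, and was higher in females (2.01 ± 0.66, edgeR adjusted p = 0.0476). The last site, at 27534801 and overlapping an exon, had 71 and 253 reads in females and 0 and 12 in males, and missed the threshold (3.84 ± 1.48, edgeR adjusted p = 0.0758). That site was called higher in females with library size alone (4.62, adjusted p = 0.0472), without a filter (4.17, 0.00424), with a filter of 1 CPM in 2 libraries (4.19, 0.0274), with DESeq2 (3.91, 0.0128), and without female 1 (4.48, 0.0035) or male 2 (5.24, 0.0119). An exonic site at 27533115 had 17 and 19 reads in females and 0 and 1 reads in males, a 20.0-fold ratio with a counting interval of 3.36 to 811 (edgeR adjusted p = 0.0334). The share of the last site was 26.8% and 57.8% in females and 0% and 29.3% in males, with female 1 below male 2, and site use did not pass the test (F = 1.09, diffSpliceDGE adjusted p = 0.563). Other papolg sites were at 27533035 (2 and 12 reads in females, 0 in males) and in introns at 27515685 (4 and 1 reads in females, 0 and 2 in males) and 27526125 (0 and 1 reads in females, 0 and 5 in males).

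fam46c lies on the minus strand. Its symbol was not in the RefSeq gene table, so its chromosome is not given here. The site at 21159, overlapping an exon, took 7304 and 2844 reads in females and 590 and 219 in males (3.01 ± 0.89, edgeR adjusted p = 0.0353). An exonic site 1085 bases upstream, at 22244, had 1186 and 1110 reads in females and 291 and 133 in males, and missed the threshold (1.81 ± 0.67, edgeR adjusted p = 0.0668), which it passed with library size alone (2.59, adjusted p = 0.0224) and with the filter of 1 CPM (2.21, adjusted p = 0.0462). The downstream site held 86.0% and 71.9% of fam46c reads in females and 67.0% and 62.2% in males. Both females lay above both males, but site use did not pass the test (F = 1.40, diffSpliceDGE adjusted p = 0.457). The site at 22030 had 3 reads in female 2 only.

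The 9 called sites did not rest equally on the 4 frogs. The main sites of cpeb1, patl2 and pabpc1l stayed past the threshold without any 1 frog. Both called papolg sites (27527980, log2 fold changes of 1.83 to 2.39, and 27533115, 2.03 to 4.21) and the pabpc1 site at 115763573 (-3.02 to -2.24) lost their call whichever frog was left out. The call was also lost without a filter on low counts at 27527980 (2.43), 27533115 (4.52), 115763573 (-2.38) and 115750171 (-2.44), and with DESeq2 at 27527980 (2.04) and 27533115 (4.43). At 27533115 it was lost with the filter of 1 CPM too (4.51). The pabpc1 site at 115750171 lost it without female 2, male 1 or male 2 (-2.20, -2.28 and -3.10), and that at 115749960 without female 2 or male 2 (-2.81 and -2.49). The fam46c site at 21159 lost it without female 1, male 1 or male 2 (2.30, 3.41 and 2.95).

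The wider poly(A) tail machinery, and mRNAs known as targets of CPEB, were read through 5 gene lists, of which 95 genes were tested. With the 7 genes left out, 31 of 88 tested genes (35.2%) had higher levels in females and 2 (2.3%) in males, against 19.6% and 17.1% of all tested genes, and their median log2 fold change was 1.48 against 0.35. These pooled values include the CPEB targets, which apart from cpeb4 are on none of the machinery lists. Outside the 7 genes, 13 list genes had 0 reads in both males. Such genes can pass the filter on low counts only through the females. The same holds for called list genes with only a few reads in males, zar1l, caprin2, dazl, btg2, toe1, ccnb1.2 and cdk2 among them. The shares higher in females, here and in each list with such genes, are therefore not independent of that filter. The lists differed in how many of their genes were higher in females. Again without the 7 genes, it was 88.9% of the tested CPEB targets. In the machinery lists it was 45.5% (CPEB partners and stored mRNA particle), 25.0% (poly(A)-binding proteins), 22.2% (polymerases) and 21.6% (deadenylation and decapping).

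mRNAs known as targets of CPEB in frog oocytes were called higher in females in 8 of 9 tested cases (88.9%), beside 19.6% of all tested genes. Their median log2 fold change was 5.04 when genes at 0 reads in males are put at their lower bound. These 8 include the cyclins ccnb1 (392 and 286 CPM in females, 0 reads in both males, at least 304-fold) and ccnb1.2 (271 and 604 CPM in females, 1.22 and 2.85 CPM in males, log2 fold change 7.78 ± 0.89, edgeR adjusted p = 0.00561). They also include fbxo43, an inhibitor of the anaphase-promoting complex (at least 57.7-fold), and the kinase cdk2 (124 and 207 reads in females, 0 and 1 in males). The 9th gene was cpeb4, higher in males as given above. Of the 12 listed targets in the table, 8 had 0 reads in both males, mos and ccnb2 included. Such genes can pass the filter on low counts only through the females, and so can ccnb1.2 (2 and 3 reads in males) and cdk2. All 8 called targets thus entered the test only through the females, so the count of tested cases is not independent of its result. Too rare to be tested were aurka, wee2 and bub3, with 1 and 5, 2 and 0, and 0 and 2 reads in the females.

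Among CPEB partners and proteins of the stored mRNA particle, 12 of 24 tested genes were higher in females, cpeb1 and patl2 included, whereas 2 were higher in males, with a median log2 fold change of 1.68. Without cpeb1 and patl2 it was 10 of 22 (45.5%) in females and 2 (9.1%) in males, with a median of 1.35. Of all tested genes, 19.6% and 17.1% were called, with a median of 0.35. zar1l, a relative of the oocyte gene zar1, had 2275 and 1871 reads in females and 0 and 2 reads in males. eif4e1b, an oocyte form of the cap-binding protein, had 161 and 240 reads in females and 0 in males (at least 75.2-fold, edgeR adjusted p = 0.0062). zar1 was at least 60.2-fold higher in females, and it is also among the oocyte markers. caprin2, an RNA-binding protein, had 221 and 277 reads in females and 0 and 2 in males. The general cap-binding gene eif4e did not pass the test (0.53 on the log2 scale, edgeR adjusted p = 0.464). The genes higher in males were cpeb4 and msi2, an RNA-binding protein of the Musashi family (-1.76 ± 0.54, edgeR adjusted p = 0.0367). Under somatic scaling, 0 genes of the 5 lists were higher in males.

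Of the deadenylation and decapping genes, 8 of 37 (21.6%) were higher in females, and 0 were higher in males, with a median log2 fold change of 1.54. Over all tested genes it was 19.6% and 17.1%, so the share higher in females was near that of all genes. The 4 genes named here are those of smallest adjusted p in the list. nanos1, a germline repressor that recruits the deadenylase, had 378 and 230 reads in females and 0 in males (at least 111-fold). btg4, a deadenylase adaptor of oocytes and early embryos, had 208 and 112 reads in females and 0 in males (at least 58.4-fold). The decapping cofactor dcp1a was higher in females by 4.45 ± 0.75 on the log2 scale (edgeR adjusted p = 0.00818), and toe1, a deadenylase, by 4.93 ± 0.89 (edgeR adjusted p = 0.00935). The call of toe1 was lost without female 1 (4.23).

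Among poly(A) polymerases and other terminal nucleotidyltransferases, 4 of 11 tested genes, papolg and fam46c included, were called higher in females, and 0 in males, with a median log2 fold change of 1.42. Without papolg and fam46c the count was 2 of 9 (22.2%) in females and 0 in males, beside 19.6% and 17.1% of all tested genes. The others were fam46b, given above, and tut1 (112 and 129 CPM in females, 34.2 and 45.5 CPM in males, log2 fold change 1.60 ± 0.53, edgeR adjusted p = 0.0474). The call of tut1 was lost when any 1 frog was left out (1.42 to 1.92), with DESeq2 (1.59), with sites on the opposite strand included (1.46) and without intronic sites (1.33). papd4, also called gld2, the cytoplasmic polymerase known to work with CPEB in frog oocytes, did not pass the test at 1.26 on the log2 scale (edgeR adjusted p = 0.199). mtpap, the mitochondrial polymerase, and zcchc6, a uridylyltransferase, did not pass either (edgeR adjusted p = 0.0627 and 0.0780). Both were called with library size alone (4.74 and 2.31) and somatic scaling (7.62 and 5.40), and mtpap also without a filter (3.98) and without male 2 (2.72).

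Of the poly(A)-binding proteins and their partners, 4 of 15 tested genes were higher in females (pabpc1l, pabpn1l, paip1 and larp1b) and pabpc1 was the 1 higher in males, with a median log2 fold change of 0.18. Without pabpc1, pabpc1l and pabpc4 it was 3 of 12 (25.0%) in females and 0 in males, beside 19.6% and 17.1% of all tested genes. pabpn1l, an oocyte relative of the nuclear poly(A)-binding protein, had 215 and 150 reads in females and 0 in males (at least 67.0-fold, edgeR adjusted p = 0.0062). Its general form pabpn1 had 302 and 165 CPM in females and 247 and 315 CPM in males, with the sexes overlapping (-0.27 ± 0.57, edgeR adjusted p = 0.731), and its sign turned with library-size scaling. paip1, a partner of the cytoplasmic poly(A)-binding protein, had 101 and 105 CPM in females and 15.9 and 36.0 CPM in males (2.0 ± 0.61, edgeR adjusted p = 0.0369), and lost its call without female 1, female 2 or male 1 (2.02, 2.11 and 1.54). larp1b (1.86 ± 0.62, edgeR adjusted p = 0.0475) lost its call without any 1 of the frogs (1.23 to 2.34).

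**Figure D4:**
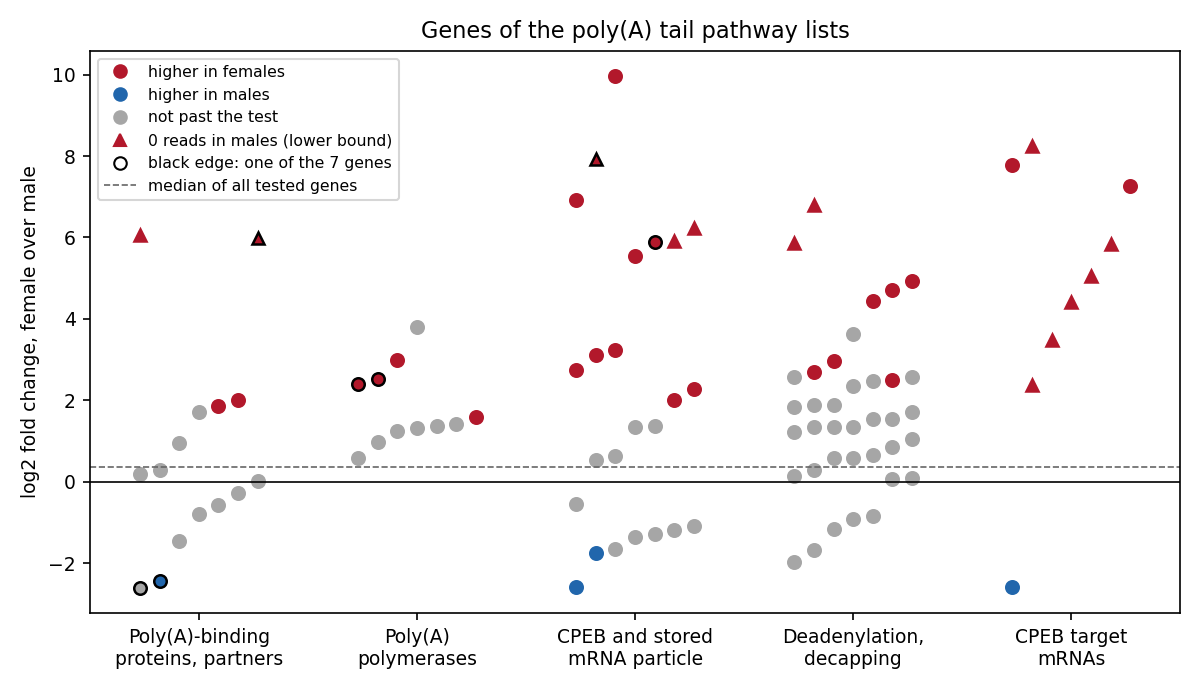
Log2 fold change, female over male, of every tested gene in 5 lists of the poly(A) tail pathway; circles are edgeR estimates, triangles are lower bounds for genes with 0 reads in males, and the dashed line is the median of all tested genes (0.35). Genes called higher in females are red and in males blue, cpeb4 appears in both the CPEB list and the last list, and the last list has 8 of 9 genes on the female side.

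The genes whose levels over the 4 libraries were nearest to those of cpeb1 and pabpc1 were found by Euclidean distance of log2 CPM among all tested genes with a symbol. For cpeb1 they were tacc3 (distance 0.81), with 221 and 482 CPM in females and 3.05 and 5.69 CPM in males, followed by clspn (1.06) and gtsf1 (1.13). The nearest to pabpc1 were rpl19 (0.65), rpl7a (0.69) and rps27a (0.73), which encode ribosomal proteins. rpl19 had 742 and 494 CPM in females, against 2816 and 3933 CPM in males. These distances rest on 4 libraries and describe likeness of level only.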

How the data were processed

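Whole-body RNA of 2 female and 2 male frogs was sequenced at polyadenylation sites. Per the labels' protocols, Trizol RNA was fragmented, selected for poly(A) RNA and reverse-transcribed, and the cDNA was sized and PCR-amplified. For genome build, site calling and site filters, the method was not given in the sources used here, apart from Bowtie2 2.2.3, which the submitters' processing notes list.

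The authors deposited raw read counts per site and library. The deposited table also holds the authors' p-values (raw, FDR and Bonferroni) and a signed fold change, treated as a score, whose sign, read off against the counts, is positive for higher in females. A line of column totals was left out. The file names no scheme for its class codes, and Cuffcompare's was assumed.

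Here, gene sums left out 2709 sites on the opposite strand, and 7380 sites without a gene entered the site test only. Reads shared by near-identical copies or overlapping genes cannot be assigned with certainty. The gene and site tests used edgeR 4.0.16 under R 4.3.3, with TMM scaling, a low-count filter (filterByExpr, minimum count 10 and total 15) and the quasi-likelihood functions glmQLFit and glmQLFTest, with Benjamini-Hochberg adjusted p at 0.05. Site use was tested with diffSpliceDGE in genes with at least 2 tested sites. DESeq2 1.42.0 was an alternative, as were other scalings and filters, other sets of sites, leaving out each frog, and a replicate block. The scripts were tested on simulated data. Standard errors are the absolute log2 fold change over the square root of F. Where both males had 0 reads, the fold is a lower bound: the females' mean CPM over 3 reads in the males' summed effective library. Ratios with 1 to 3 reads in 1 sex have 95% Clopper-Pearson intervals. P-values of the fits rest on the spread between single frogs, estimated partly from other genes or sites. Genes and sites at 0 reads in both males show no spread between the males, so their p-values do not measure it.

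The 7 genes and the gene lists were chosen with earlier results of these data known. All 7 genes and all their sites are named, with up to 4 other genes of smallest adjusted p per list, direct relatives of the 7 genes, and the 3 nearest genes by level of cpeb1 and pabpc1. Other list genes that are named (mos, ccnb2, aurka, wee2, bub3, msi2, eif4e and papd4) and the named testis and sperm markers were chosen after their values were seen. RefSeq's gene table (UCB_Xtro_10.0) matched 6 of the 7 symbols and gave chromosome numbers only.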

Additional observations from a re-analysis of the deposited data

Results flagged for a closer look

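Reads on the strand opposite to an exon entered no gene sum. A site opposite to cpeb1 at 85059983 had 23 reads in females (21 in female 1 and 2 in female 2) and 0 in both males, above the limit of 3 reads that a count of 0 allows. A site opposite to pabpc1 at 115750019 had 20 reads in females (19 in female 1 and 1 in female 2), and 3 and 0 reads in the males. In both cases nearly all reads came from female 1. Over all sites, reads on the opposite strand made up 3.85% and 2.87% of the reads in females and 0.889% and 0.512% in males. Female 1 was thus the highest there too, and these 2 sites were not tested against that background. A further intronic site opposite to cpeb1, at 85088347, had 2 reads in male 1 only.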

How the results depend on the processing

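cpeb1, patl2 and pabpc1l kept their call under all 13 alternatives run for genes, and cpeb1 also kept its direction. With 0 reads in both males, patl2 and pabpc1l could not turn in direction under any setting. Somatic scaling gave 7957 genes higher in females and 56 in males, library size alone 3290 and 1045, and leaving out 1 frog 641 to 2495 and 502 to 1876. Sites higher in females numbered 8921, and 4575 in males, with a filter of 1 CPM in 2 libraries, and 1616 to 3415 and 684 to 2362 without 1 frog. Genes with differing site use numbered 1375 with that filter, 134 without intronic sites and 0 to 731 without 1 frog. Pathway genes higher in females numbered 93 under somatic scaling and 20 to 37 without 1 frog; those higher in males 1 with library size alone, 0 under somatic scaling, 1 with the 1 CPM filter, 6 with DESeq2, 9 with the replicate block and 0 to 3 without 1 frog.

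The log2 fold change of pabpc1 was -1.53 with library size alone, -2.25 with the 1 CPM filter, 1.54 under somatic scaling and -2.51 to -2.26 without 1 frog, none of them called. That of pabpc4 was 1.36 under somatic scaling, -1.65 with library size alone and -2.12 without intronic sites, none of them called. It was -2.63 with DESeq2 (called), -2.65 with the replicate block (called) and -3.50 to -1.66 without 1 frog. papolg ranged over 1.93 to 3.2 and fam46c over 1.97 to 3.05 without 1 frog. Somatic scaling turned cpeb2 to 2.33, cpeb4 to 1.39, patl1 to 2.79 and pabpn1 to 3.71. Library size alone turned pabpn1 to 0.57, and leaving out intronic sites turned patl1 to 2.33. Without 1 frog, pabpn1 ranged over -0.78 to 0.23, fam46a over -3.11 to 5.80 and the pabpc4 site at 86929373 over -3.69 to 0.27. The pabpc1 site at 115763907 turned to 0.67 with library size alone, 0.27 without a filter, 0.27 with the 1 CPM filter and 0.33 with the replicate block, and ranged over -0.96 to 2.04 without 1 frog. The site use F of pabpc1 was 4.27 without intronic sites (adjusted p = 0.0887) and 1.46 to 5.78 without 1 frog. The share of pabpc4, females minus males, was 0.112 points without intronic sites and -0.590 to 0.231 without 1 frog, and that of fam46c -14.4 to 34.5. Leaving out a frog leaves 1 frog in a sex, assumed to vary like the others. The cause of the other changes was not tested.

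The labels do not say that replicate numbers pair the frogs. Deviations of same-numbered frogs from their sex's mean correlated at 0.31 across 10188 genes, with 2 pairs only. The replicate block called 2500 genes higher in females and 2137 in males, and among the 7 genes it changed the call of pabpc4 only. It also called cpeb2 higher in males (-1.67), fam46a (1.35), zcchc6 (1.47) and eif4g2 (1.90) higher in females, and the sites at 27534801 (4.35), 115750050 (3.24), 115763655 (-2.26) and 22244 (1.82), and it lost the papolg site at 27533115 (4.25).

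Depth limits the rare genes: in males cpeb1 rests on 6 and 5 reads, and 0 reads allows 1.83 and 2.85 CPM.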
